A study of Homo sapiens with 4 samples.

Results

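The 30 genes described here make cholesterol and fatty acids or control that synthesis, and they were taken by symbol from a deposited table of 28198 genes. The rule is a list of pathway genes that uses no measured value, although it was drawn up with earlier results of these data known, and all 30 were in the table. MDA-MB-231, an established human line of mesenchymal type from a breast cancer, was examined by polysome profiling, in which a sucrose gradient sorts mRNAs according to their ribosome load. METTL3, the catalytic subunit of the m6A RNA methyltransferase, had been depleted in these cells, which were infected with lentiviruses and so reconstituted with METTL3-WT (WT cells) or with METTL3-K177Q (K177Q cells), in which a glutamine that mimics acetylation replaces a lysine. The depletion is shared by both groups, and whether each was a population or a single clone, and which promoter drove the METTL3 cDNA, is not given in the sources used here. Cells of both genotypes received cycloheximide at 100 µg/mL for 5 min before lysis, and the gradient fractions of each were combined into a sub-polysome and a polysome fraction. The 4 libraries analysed, all labelled replicate 2, hold 1 of each fraction and genotype. No value therefore has a replicate error, no difference was tested, and each difference compares single libraries. Values are in FPKM, fragments per transcript length relative to the fragments of the library (how libraries were scaled to each other is not given in the sources used here), and the polysome value divided by the sub-polysome value is called translation efficiency (TE).

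Cholesterol is built from acetyl-CoA through mevalonate, farnesyl diphosphate and squalene, and fatty acids are built from the same acetyl-CoA through malonyl-CoA. Most genes of both routes are transcribed under the control of the SREBP factors, membrane proteins of the endoplasmic reticulum that SCAP carries to the Golgi for cleavage when sterols are low and that INSIG proteins hold back when sterols are high. Both routes are active in many cancer cells, which use the products for membranes, protein prenylation and lipid signals.

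Since the measurement concerns ribosome loading, the sequence around the start codon is shown for the 3 genes with the highest and the 3 with the lowest TE in WT cells, and for TM7SF2, which had the largest difference between genotypes. Each runs from 9 bases before to 10 bases after the start codon of the canonical GENCODE 44 transcript on GRCh38, with the ATG in capitals and the position of the ATG given.
LSS (chr21:46228743-46228745, minus strand): gcagcagcaATGacggagggca
FDPS (chr1:155309790-155309792, plus strand): gggaacaggATGcccctgtccc
NSDHL (chrX:152846325-152846327, plus strand): tgcttcgaaATGgaaccagcag
INSIG1 (chr7:155298286-155298288, plus strand): gtgtgaccgATGcccagattgc
ELOVL6 (chr4:110198333-110198335, minus strand): tcagccccaATGaacatgtcag
CYP51A1 (chr7:92134362-92134364, minus strand): acggagtgaATGgcggcggcgg
TM7SF2 (chr11:65112016-65112018, plus strand): gcggagaccATGgcccccactc
LSS, FDPS and NSDHL have a purine (G, A and G) at the position 3 bases before the ATG, the position best known to favour initiation, whereas INSIG1 and ELOVL6 have C and CYP51A1 has T there. Of all 30 genes, 24 have a purine at that position (80.0%), against 87.6% of 10258 mRNAs compared, and 15 have G right after the ATG (50.0%, against 54.6%). The median log2 TE in WT cells was 0.19 for the 6 genes without a purine (from -0.66 to 1.14) and 0.76 for the 24 with one (from -0.28 to 1.85), and the 2 ranges overlap. The highest of the 6 was DHCR7, with a TE of 2.20. This split was not made over all mRNAs compared, and LSS, FDPS, NSDHL, INSIG1, ELOVL6 and CYP51A1 were shown because of their TE. An upstream ATG in the 5' leader was present in 8 of the 30 genes (26.7%), against 37.7% of the mRNAs compared. The median log2 TE in WT cells was 0.58 for these 8 genes and 0.75 for the other 22, a difference of the same sign as between all mRNAs compared with an upstream ATG (-0.02) and without one (0.32).

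The promoters were searched for 2 motifs because SREBP acts on its targets together with the CCAAT-binding factor NF-Y. RefSeq windows from 250 bases before to 50 bases after a transcription start (GRCh38.p14) were found for 26 of the 30 genes. The NF-Y box CCAAT, on either strand, was in a window of 20 of these genes (76.9%), against 39.7% of 27305 genes with a window and 43.8% of 8440 among the mRNAs compared. Of the 20 genes, 15 held more than 1 box, counted over all windows of a gene. The 26 genes had 35 windows, so genes with several start sites had more sequence searched. The share of all genes with more than 1 box was not computed. The sterol regulatory element as TCACNCCAC, on either strand, was in 1 of the 26 (3.85%), the gene of SREBP2 itself, against 1.39% of all genes with a window. The letters are a description of the window and not a measured site, and 4 genes (ACAT2, FASN, FDFT1 and SQLE) had no entry. The windows below show the sterol element of SREBF2 and NF-Y boxes of 4 further genes, on the gene's strand with the match in capitals and 10 bases on either side.
SREBF2 (chr22:41832962-41832990, plus strand): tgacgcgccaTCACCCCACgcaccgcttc
INSIG1 (chr7:155297698-155297722, plus strand): ccggcctcccATTGGttgcggccgc
HMGCS1 (chr5:43313498-43313522, minus strand): accggccgcgATTGGctgtgggagc
FDPS (chr1:155308734-155308758, plus strand): cggccagcagCCAATcagcgcggct
LSS (chr21:46228910-46228934, minus strand): cggcgctctgATTGGttgcgtgggc
The box shown for FDPS is on the gene's own strand, and those shown for INSIG1, HMGCS1 and LSS read ATTGG there, that is CCAAT on the opposite strand. The other boxes of FDPS, not shown, are on the opposite strand.

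FPKM summed to between 767949 and 1037594 per library, and between 15773 and 16193 genes were above 0. The depth is known only approximately, as between 23400000 and 26200000 fragments per library. Its basis was FPKM multiplied by length in kilobases, in genes with 1 transcript. The median of such values between 0.028 and 0.056 was taken as 1 fragment. That window was fixed in the calculation and bounds the depth that could be found, so the depth is a rough guide. METTL3 had 9.39 FPKM in WT and 5.07 FPKM in K177Q sub-polysomes and 38.7 FPKM and 29.5 FPKM in polysomes, a level that does not check the mutation. VIM, CD44, CAV1, MSN and AXL, markers of this mesenchymal line, had between 88.6 FPKM and 1543 FPKM. ESR1 and PGR were at most 0.0119 FPKM and CDH1 at most 0.632 FPKM, but 2 epithelial markers listed as low, KRT19 (548 FPKM to 1415 FPKM) and EPCAM (6.20 FPKM to 9.91 FPKM), were present. FPKM is relative to each library's total, so that a change shared by all mRNAs cannot be seen.

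All 30 genes passed the minimum mean of 1 FPKM that 10905 genes of the table passed, and they spanned a range from HMGCS1 and ACACA at the bottom to FDPS at the top by mean FPKM. Together they took 0.0844% of the FPKM of the WT sub-polysome and 0.175% of the WT polysome library, and 0.0781% and 0.183% in K177Q cells. In polysomes FDPS was the highest gene of the set, with 331 FPKM in WT and 293 FPKM in K177Q cells, whereas in sub-polysomes EBP (97.2 FPKM and 124 FPKM) was level with or above FDPS (97.0 FPKM and 95.7 FPKM). HMGCS1, which carries out the step that commits acetoacetyl-CoA to the pathway, never exceeded 2.80 FPKM. FDPS and HMGCS1, both enzymes of the mevalonate arm, thus differed by more than 10-fold in every library, as the plot of the 4 libraries shows. HMGCS1 shares 2125 exonic bases, of a transcript of 5350, with a non-coding gene on the opposite strand. Its value is uncertain to that extent, since it is not given whether the counting used the strand.

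**Figure D1:**
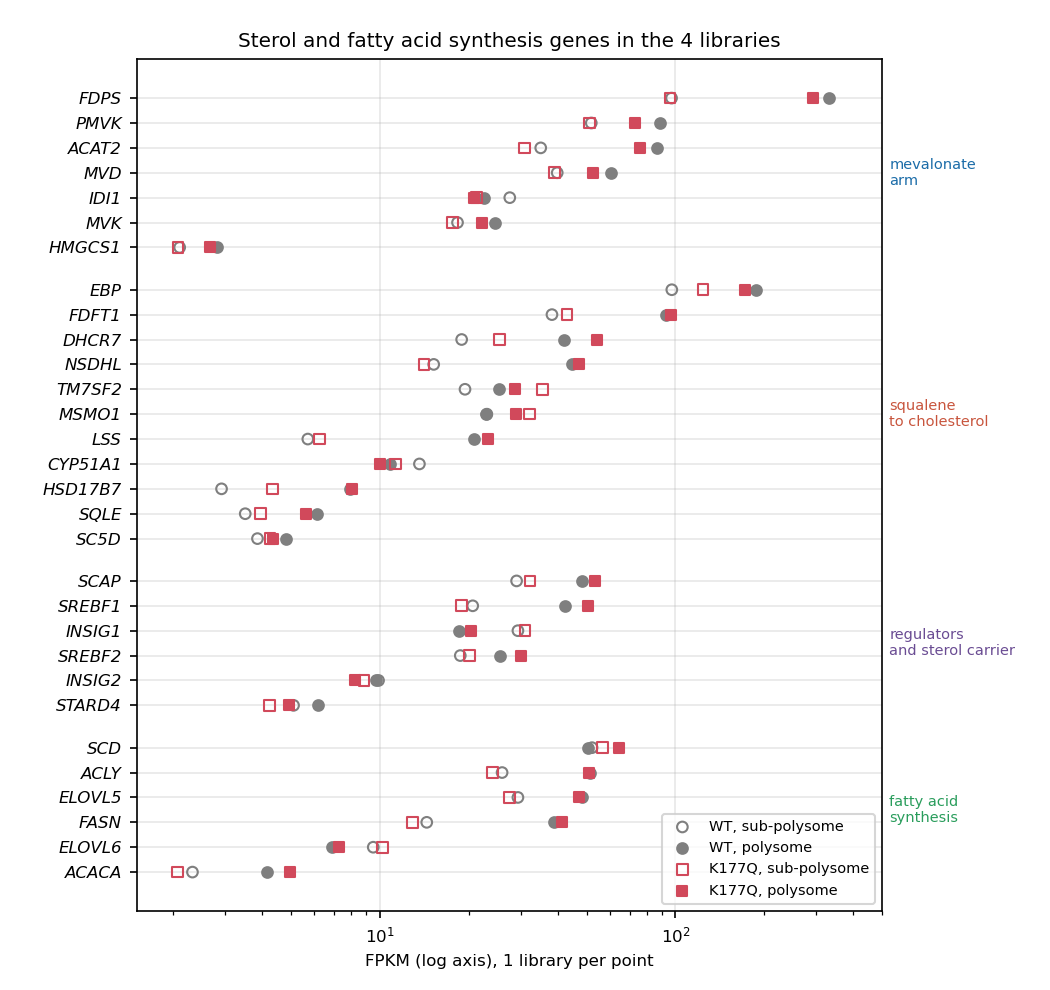
FPKM of the 30 genes on a log axis, grouped by role and ordered by mean within a role; open symbols are sub-polysome and filled symbols polysome libraries, circles WT and squares K177Q cells, with 1 library per point. FDPS had the highest polysome values (331 FPKM in WT cells), and ACACA and HMGCS1 were the lowest genes by mean, with single values between 2.06 FPKM and 4.96 FPKM.

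Of the 30 genes, 23 had a TE above the median of all genes compared in WT cells and 22 in K177Q cells, under each of the 4 scalings computed. In WT cells, 17 of the 30 had a TE of at least 1.5, against 28.1% of all genes compared, and 1 had a TE of at most 1/1.5 (INSIG1), against 19.1%. In K177Q cells, 13 of 30 were at least 1.5-fold higher in polysomes, against 30.2%, and INSIG1 was again the 1 gene at least 1.5-fold lower, against 21.3%. All 13 were among the 17. As deposited, the 4 genes at the threshold in WT cells alone were PMVK (1.71 in WT and 1.42 in K177Q cells), MVD (1.51 and 1.35), SQLE (1.73 and 1.42) and EBP (1.93 and 1.38). The median TE of the set was 1.65 in WT and 1.42 in K177Q cells, and that of all genes was 1.11 and 1.12. On the log2 scale the set lay 0.58 above all genes in WT and 0.34 above them in K177Q cells. With each library rescaled to the same total (TPM), these distances were 0.58 and 0.35, and 17 and 22 genes had a TE of at least 1.5, against 34.2% and 50.2% of all genes, and 0 had one of at most 1/1.5 in either genotype, against 15.7% and 12.6%. INSIG1 then had a TE of 0.693 in WT and 0.892 in K177Q cells. PMVK (1.88 in WT and 1.91 in K177Q cells), MVD (1.66 and 1.82), SQLE (1.90 and 1.91) and EBP (2.12 and 1.87) were then above 1.5 in both genotypes. That these 4 passed 1.5 in WT cells alone thus depends on the scaling. Among the genes that averaged 10 FPKM or more as deposited, with 22 of the 30 left, the set lay 0.479 above all genes in WT cells. In K177Q cells it lay 0.435 above them. All these distances are between medians and are not gene-by-gene ratios.

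**Figure D2:**
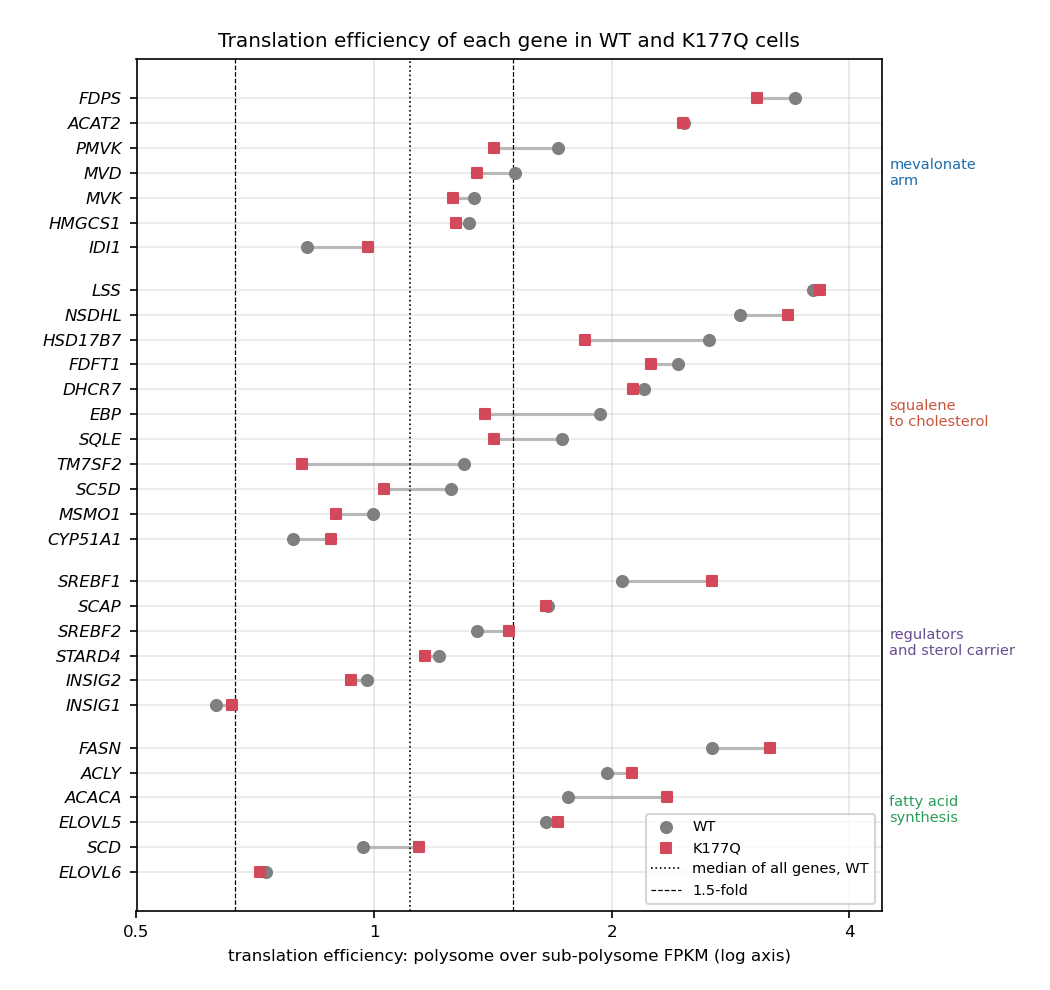
TE (polysome over sub-polysome FPKM, log axis) of each gene in WT (grey circles) and K177Q cells (red squares), 1 value per genotype; the dotted line is the median of all genes in WT cells (1.11) and the dashed lines are 1.5-fold in either direction. LSS, FDPS, NSDHL and FASN stood at the high end in both genotypes and INSIG1 and ELOVL6 at the low end, while TM7SF2 moved most, from 1.30 to 0.810.

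The order of the genes by TE did not follow the order of the steps. LSS, which closes squalene epoxide into lanosterol, had the highest TE of the set, 3.60 in WT and 3.67 in K177Q cells. The next enzyme of the pathway, CYP51A1, had 0.790 and 0.882. Its value is uncertain because 2827 exonic bases, of a transcript of 3155, are shared with another gene on the same strand. FDPS, which makes farnesyl diphosphate, had a TE of 3.41 and 3.06, whereas IDI1, the isomerase just before it, had 0.822 and 0.981. Which side of 1 a gene lies on depends on the scaling, and with TPM CYP51A1 had 0.866 and 1.19 and IDI1 had 0.902 and 1.32. Among the enzymes of fatty acid synthesis, FASN had 2.68 and 3.17 and the elongase ELOVL6 had 0.729 and 0.716. The paralogues INSIG1 and INSIG2 differed as well, with 0.631 and 0.980 in WT cells and 0.661 and 0.936 in K177Q cells. SREBF1 and SREBF2, which encode the SREBP factors, had 2.06 and 1.35 in WT and 2.68 and 1.48 in K177Q cells.

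The comparison of K177Q with WT cells asks how the acetylation-mimetic METTL3 changes translation. Of the 30 genes, 0 had a TE at least 1.5-fold higher in K177Q cells, against 4.08% of all genes, and 1, TM7SF2, was at least 1.5-fold lower, against 7.03%. With TPM, the split was 2 higher (SREBF1 and ACACA) and 0 lower, against 18.6% and 2.83%. The median log2 TE ratio of K177Q to WT cells was -0.04 for the set and -0.01 for all genes. The ratio was above 0 for 12 of the 30 genes (40.0%), against 48.9% of all genes. Rescaling to TPM moved the median of all genes to 0.29 and that of the set to 0.26, which left the set 0.03 below all genes under both scalings. Among the genes that averaged 10 FPKM or more, the set, with 22 genes left, was 0.10 above all genes instead. Values of the ratio spanned -0.68 to 0.41 with an SD of 0.254 across the 30 genes, against 0.455 across all genes and 0.333 across the 5379 genes that averaged 10 FPKM or more. The ratio was within 0.1 of 0 for 11 genes (36.7%), against 22.9% of all genes, and with TPM for 3 genes, against 15.2%. Within 0.1 of the median of all genes there were 11 genes under both scalings, against 23.0% as deposited and 22.8% with TPM. Counting error at the approximate depth gives each ratio a standard error between 0.034 and 0.21, which does not include variation between libraries. In a bulk culture, fewer cells with an mRNA and less of it per cell cannot be told apart.

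Within the polysome fraction, 0 of the 30 genes were 1.5-fold higher and 0 were 1.5-fold lower in K177Q cells, against 2.13% and 3.13% of all genes. Within the sub-polysome fraction, TM7SF2 was 1.5-fold higher and 0 genes were lower, against 4.01% and 2.94%. The medians of the set were 0.01 in polysomes and -0.02 in sub-polysomes on the log2 scale, beside -0.02 and -0.004 for all genes.

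The mevalonate arm runs from acetyl-CoA to farnesyl diphosphate, and its 7 genes had lower FPKM in K177Q cells in both fractions, each by less than 1.5-fold. Their log2 ratios ran from -0.29 to -0.08 in polysomes and from -0.37 to -0.02 in sub-polysomes. In sub-polysomes PMVK, HMGCS1, FDPS, MVD and MVK lay between -0.05 and -0.02, close to no difference. Of all 10905 genes, 5856 were below 0 in polysomes and 5513 in sub-polysomes. Relative to the median of all genes, the median of the 7 was -0.15 in polysomes and -0.02 in sub-polysomes. Rescaling to TPM set all genes at medians of 0.07 in polysomes and -0.21 in sub-polysomes, and 1 of the 7 was then above 0 in polysomes and 0 in sub-polysomes, and with size factors 1 was above 0 in sub-polysomes. Their median log2 TE ratio was -0.09, with 6 of 7 below 0 as deposited, against 5573 of all 10905 genes. With TPM 0 of 7 were below 0. ACAT2, the thiolase that joins acetyl-CoA units, had 35.0 FPKM in WT and 30.9 FPKM in K177Q sub-polysomes and 86.5 FPKM in WT and 76.1 FPKM in K177Q polysomes, with a TE ratio of -0.01. It shares 454 exonic bases with TCP1 on the opposite strand, and whether the counting used the strand is not given in the sources used here. HMGCS1, which makes hydroxymethylglutaryl-CoA, had 2.10 FPKM in WT and 2.07 FPKM in K177Q sub-polysomes and 2.80 FPKM in WT and 2.65 FPKM in K177Q polysomes. Its TE differed little between the genotypes, with a log2 ratio of -0.06 and a counting standard error of 0.16. MVK, the kinase that first phosphorylates mevalonate, had 18.3 FPKM in WT and 17.6 FPKM in K177Q sub-polysomes and 24.6 FPKM in WT and 22.2 FPKM in K177Q polysomes, and its ratio was -0.09.

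PMVK, the kinase that follows, had 51.9 FPKM in WT and 51.3 FPKM in K177Q sub-polysomes and 88.9 FPKM in WT and 72.7 FPKM in K177Q polysomes. It had the lowest TE ratio of the arm, -0.27, which came from the polysome side, where the 2 libraries differed by -0.29, while its sub-polysome values differed by -0.02. MVD, which decarboxylates the product to isopentenyl diphosphate, had 39.8 FPKM in WT and 39.0 FPKM in K177Q sub-polysomes and 60.3 FPKM in WT and 52.7 FPKM in K177Q polysomes. The pattern was the same as for PMVK, with a polysome ratio of -0.20 and a TE ratio of -0.17. IDI1, which isomerizes isopentenyl diphosphate, had 27.5 FPKM in WT and 21.2 FPKM in K177Q sub-polysomes and 22.5 FPKM in WT and 20.8 FPKM in K177Q polysomes. It was the 1 gene of the arm with a TE ratio above 0, 0.26, with a sub-polysome difference (-0.37) larger than the polysome difference (-0.12). FDPS, the synthase of farnesyl diphosphate and the most abundant gene of the set in polysomes, had 97.0 FPKM in WT and 95.7 FPKM in K177Q sub-polysomes and 331 FPKM in WT and 293 FPKM in K177Q polysomes. Its ratio was -0.15, with a counting standard error of 0.040. FDPS lies on chromosome 1 from 155308748 to 155320666 (GRCh38), with 11 exons in its canonical transcript, and GENCODE 44 lists 8 pseudogenes of it, with which reads could be shared.

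Among the enzymes from squalene to cholesterol, only TM7SF2 differed by 1.5-fold in either fraction or in TE. Of these 11 genes, 9 were higher in K177Q sub-polysomes, against 49.4% of all genes. Their median log2 ratio there was 0.17, with a range from -0.27 to 0.86. In polysomes 7 of 11 were higher, against 46.2%, with a median of 0.05. Rescaling to TPM turned the order of these medians round, with -0.04 in sub-polysomes, 5 of 11 genes higher, and 0.15 in polysomes, 7 of 11 higher. Relative to the median of all genes, the 11 genes were 0.17 higher in sub-polysomes and 0.08 higher in polysomes under both scalings, with 9 and 7 of 11 above that median. The median log2 TE ratio was -0.15, with 8 of 11 genes below 0, against 5573 of all 10905. With TPM 3 of 11 were below 0, and the median relative to all genes was -0.14 in both cases.

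TM7SF2, on chromosome 11 from 65111845 to 65116384, encodes a sterol reductase of the steps after lanosterol. The 5' leader of TM7SF2 of 144 bases holds 1 upstream ATG, and its start codon, shown above, follows A at the position 3 bases before. It had 19.4 FPKM in WT and 35.4 FPKM in K177Q sub-polysomes and 25.2 FPKM in WT and 28.6 FPKM in K177Q polysomes. Its sub-polysome value was 1.82-fold higher and its polysome value 1.13-fold higher in K177Q cells, so that its TE was 1.60-fold lower. The log2 ratio of -0.68 has a counting standard error of 0.090, so counting alone does not place it firmly past 1.5-fold, and it fell short of that with TPM, at -0.39. HSD17B7 and EBP came next, below 1.5-fold. HSD17B7, a reductase of the complex that removes the methyl groups of lanosterol, had 2.91 FPKM in WT and 4.32 FPKM in K177Q sub-polysomes and 7.93 FPKM in WT and 8.05 FPKM in K177Q polysomes. Its ratio of -0.53 has the largest counting standard error of the set, 0.21, with about 117 fragments in the smallest library. Its pseudogene HSD17B7P2 was listed at 0.793 FPKM and 0.757 FPKM in WT and K177Q sub-polysomes and at 0.0284 FPKM and 0.265 FPKM in polysomes. EBP, a sterol isomerase, had 97.2 FPKM in WT and 124 FPKM in K177Q sub-polysomes and 187 FPKM in WT and 172 FPKM in K177Q polysomes. The polysome values of EBP differed by -0.13 and its sub-polysome values by 0.35, which gave a TE ratio of -0.48 with a counting standard error of 0.047.

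SQLE, the epoxidase of squalene and a slow step of the pathway, had 3.50 FPKM in WT and 3.94 FPKM in K177Q sub-polysomes and 6.14 FPKM in WT and 5.64 FPKM in K177Q polysomes. SC5D, a sterol desaturase, had 3.85 FPKM in WT and 4.24 FPKM in K177Q sub-polysomes and 4.82 FPKM in WT and 4.36 FPKM in K177Q polysomes. Both had TE ratios near -0.28 (-0.29 and -0.28) from a higher sub-polysome and a lower polysome value. MSMO1 and DHCR7 were higher in both fractions of K177Q cells. MSMO1, which oxidizes the methyl groups that are to be removed, had 23.0 FPKM in WT and 32.1 FPKM in K177Q sub-polysomes and 22.9 FPKM in WT and 28.8 FPKM in K177Q polysomes. DHCR7, a reductase of the last step, had 18.9 FPKM in WT and 25.4 FPKM in K177Q sub-polysomes and 41.8 FPKM in WT and 54.2 FPKM in K177Q polysomes. With both fractions higher, their TE ratios were -0.15 and -0.05. They had the largest polysome ratios of the enzymes from squalene to cholesterol, 0.33 and 0.38 on the log2 scale.

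The remaining 4 enzymes of this arm are FDFT1, LSS, NSDHL and CYP51A1. FDFT1, squalene synthase, had 38.2 FPKM in WT and 42.9 FPKM in K177Q sub-polysomes and 92.9 FPKM in WT and 96.4 FPKM in K177Q polysomes, with a TE ratio of -0.11. LSS had 5.70 FPKM in WT and 6.25 FPKM in K177Q sub-polysomes and 20.8 FPKM in WT and 23.2 FPKM in K177Q polysomes, and its ratio of 0.03 is smaller than its counting standard error of 0.086. NSDHL, a dehydrogenase of the demethylation steps, had 15.2 FPKM in WT and 14.1 FPKM in K177Q sub-polysomes and 44.6 FPKM in WT and 47.3 FPKM in K177Q polysomes. CYP51A1, the lanosterol demethylase, had 13.6 FPKM in WT and 11.3 FPKM in K177Q sub-polysomes and 10.8 FPKM in WT and 9.98 FPKM in K177Q polysomes. These last 2 genes and LSS were the 3 of the arm with a TE ratio above 0, 0.20 for NSDHL and 0.16 for CYP51A1. CYP51A1 and EBP share exons on the same strand with genes that GENCODE 44 names by identifier alone and that were not analysed here. The largest overlap is 2827 bases for CYP51A1 (transcript of 3155) and 642 bases for EBP (transcript of 1125). The values of CYP51A1 and EBP are therefore uncertain where reads could be split.

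Among the regulators, SREBF1 had the highest TE ratio as deposited. SREBF1, which encodes the SREBP that acts mainly on fatty acid synthesis, had 20.6 FPKM in WT and 18.9 FPKM in K177Q sub-polysomes and 42.4 FPKM in WT and 50.7 FPKM in K177Q polysomes. Its TE ratio was 0.38 (1.30-fold), from a polysome ratio of 0.26 and a sub-polysome ratio of -0.12, with a counting standard error of 0.050. After removal of a smooth trend on coding length it was 0.16, beside 0.18 for INSIG1 and 0.13 for STARD4. SREBF2, whose product acts mainly on sterol synthesis, had 18.7 FPKM in WT and 20.1 FPKM in K177Q sub-polysomes and 25.4 FPKM in WT and 29.9 FPKM in K177Q polysomes. It was higher in both fractions of K177Q cells, by 0.23 and 0.10, and had a ratio of 0.13. SCAP, the escort of both factors, had 29.0 FPKM in WT and 32.2 FPKM in K177Q sub-polysomes and 48.1 FPKM in WT and 53.3 FPKM in K177Q polysomes, with a ratio of -0.01. INSIG1, itself an SREBP target, had 29.3 FPKM in WT and 31.0 FPKM in K177Q sub-polysomes and 18.5 FPKM in WT and 20.4 FPKM in K177Q polysomes. INSIG2 had 9.89 FPKM in WT and 8.84 FPKM in K177Q sub-polysomes and 9.70 FPKM in WT and 8.26 FPKM in K177Q polysomes. The ratios of these proteins that retain SCAP were 0.07 and -0.07, and neither exceeded its counting standard error. INSIG1 was the least polysome-associated gene of the set in both genotypes. STARD4, a cytosolic carrier of cholesterol, had 5.10 FPKM in WT and 4.22 FPKM in K177Q sub-polysomes and 6.17 FPKM in WT and 4.94 FPKM in K177Q polysomes. It had the lowest polysome ratio of all 30 genes, -0.32, with a sub-polysome ratio of -0.27 and a TE ratio of -0.05. The median ratio of the 6 genes was 0.03.

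Of the 6 genes of fatty acid synthesis, 5 had a log2 TE ratio above 0, against 48.9% of all genes. Their median of 0.17 was the highest of the 4 roles. Relative to all genes this is 0.18 both as deposited and with TPM, beside 0.04 for the regulators, -0.08 for the mevalonate arm and -0.14 for the enzymes after squalene. This order was not kept among the genes that averaged 10 FPKM or more, where the enzymes after squalene were 0.01 and the mevalonate arm -0.04 relative to all genes. ACACA, the carboxylase that makes malonyl-CoA, had 2.32 FPKM in WT and 2.06 FPKM in K177Q sub-polysomes and 4.16 FPKM in WT and 4.96 FPKM in K177Q polysomes. Its TE ratio of 0.41 (1.33-fold) was the highest of the set as deposited, with a counting standard error of 0.11. FASN, the synthase that builds palmitate from malonyl-CoA, had 14.4 FPKM in WT and 12.9 FPKM in K177Q sub-polysomes and 38.8 FPKM in WT and 41.2 FPKM in K177Q polysomes. Like ACACA it was lower in sub-polysomes and higher in polysomes of K177Q cells, and its ratio was 0.24. ACLY, which supplies cytosolic acetyl-CoA from citrate, had 25.9 FPKM in WT and 24.0 FPKM in K177Q sub-polysomes and 51.2 FPKM in WT and 51.0 FPKM in K177Q polysomes. Its polysome values were the same within 0.01 on the log2 scale, and its ratio was 0.10.

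SCD, which introduces the double bond into stearate and palmitate, had 52.2 FPKM in WT and 56.5 FPKM in K177Q sub-polysomes and 50.4 FPKM in WT and 64.2 FPKM in K177Q polysomes. It was higher in both fractions of K177Q cells, by 0.35 in polysomes and 0.12 in sub-polysomes, and its ratio was 0.23. The elongases differed less between genotypes. ELOVL5, which extends polyunsaturated chains, had 29.3 FPKM in WT and 27.5 FPKM in K177Q sub-polysomes and 48.3 FPKM in WT and 47.0 FPKM in K177Q polysomes, with a ratio of 0.05. ELOVL6, which extends palmitate, had 9.49 FPKM in WT and 10.2 FPKM in K177Q sub-polysomes and 6.89 FPKM in WT and 7.27 FPKM in K177Q polysomes, with a ratio of -0.03. The 2 ratios are below their counting standard errors of 0.058 and 0.079.

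The genes with higher TE ratios tended to have long coding sequences. The coding sequences of ACACA (7149 bases), FASN (7533 bases), SCAP (3837 bases), SREBF1 (3441 bases), SREBF2 (3423 bases) and ACLY (3303 bases) are the 6 of at least 3000 bases, and the median ratio of these genes was 0.18. The 1241 genes of that length in the whole table had a median of 0.24. The 4 genes under 750 bases (PMVK, EBP, INSIG2 and STARD4) had a median of -0.17, beside -0.23 for 2282 genes. Across the 30 genes, Spearman's rho of the ratio with coding length was 0.38 (Pearson's r with log2 length 0.50), and across 10305 genes it was 0.46 (0.40). These points are genes of the same 4 libraries and not replicates. After removal of a smooth trend on coding length, which was added once the data had been seen, 8 of the 30 genes changed sign, the median of the set was -0.07, TM7SF2 remained the 1 gene past 1.5-fold, and the medians were 0.12 for fatty acid synthesis, 0.11 for the regulators, -0.08 for the mevalonate arm and -0.10 for the enzymes after squalene. ACACA was then 0.15 and no longer the highest of the set, which was IDI1 at 0.37, and FASN was -0.03. The part of coding length in the differences between roles was not tested beyond this.

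Of 55 further genes of these pathways, compared in 5 lists, 0 had a TE at least 1.5-fold higher in K177Q cells, against 4.08% of all genes, and 1 was lower, against 7.03%. The lower gene was CPT2, an enzyme of fatty acid oxidation in mitochondria, with 1.68 FPKM in WT and 3.11 FPKM in K177Q sub-polysomes and 5.19 FPKM and 5.38 FPKM in polysomes. Like that of TM7SF2, its ratio of -0.80 came from the sub-polysome library. The median ratio was 0.03 for 11 genes that process SREBP or degrade sterol-regulated proteins, -0.03 for 8 of the branches of the isoprenoid pathway, 0.01 for 10 of sterol transport and storage, 0.02 for 16 of fatty acid supply, elongation and desaturation, and -0.14 for 10 of fatty acid oxidation. Their median TE in WT cells was 0.897, 1.52, 1.12, 1.30 and 1.95 in the same order, so that the genes that process SREBP were less polysome-associated than the 1.65 of the enzymes and regulators described here.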

How the data were processed

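MDA-MB-231 polysome-profiling RNA was poly(A)-selected and sequenced as strand-directional libraries on the Illumina NovaSeq6000. The authors deposited 1 table of FPKM per gene. The submitters' processing notes name STAR 2.7, StringTie 2.1.5 and hg38 without their roles, and the annotation and any scaling between libraries are not given in the sources used here. A further 4 columns of the table carry names that fit none of the samples given, and these were left out.

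TE was polysome over sub-polysome FPKM with a pseudocount of 0.1, on the log2(FPKM + 0.1) scale, which understates the change of low genes. The comparison took genes averaging 1 FPKM or more across the 4 libraries, and a gene was called at 1.5-fold. All 30 members are named, and of each related list up to 3 genes past 1.5-fold. The members, lists and rules were chosen with earlier results of these data known. With 1 library per condition, no test was made. Standard errors rest on the canonical transcript length and on an approximate depth, and they cover counting error only. For the depth, genes with 1 transcript were used. The median of their FPKM multiplied by length in kilobases, within a fixed window of 0.028 to 0.056, was taken as 1 fragment. Positions, leaders, start codons and coding lengths (found for 94.5% of genes compared) are those of canonical GENCODE 44 transcripts, matched by symbol, and promoters are RefSeq windows on GRCh38.p14. The calculation was tested on simulated data. Alternatives were other pseudocounts, filters and scalings, a 2-fold threshold and, added later, removal of a lowess trend (span 0.3) on coding length. Software was matplotlib 3.10.9, statsmodels 0.14.6, scipy 1.17.1, pandas 2.3.3 and numpy 2.4.6 under Python 3.11.15.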

Additional observations from a re-analysis of the deposited data

Results flagged for a closer look

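For 2 of the 30 genes, the direction between fractions was opposite in the 2 genotypes: the gene was higher in polysomes in 1 genotype and higher in sub-polysomes in the other. TM7SF2 had a log2 TE of 0.38 in WT and -0.30 in K177Q cells, a ratio of -0.68. SCD had -0.05 in WT and 0.18 in K177Q cells, a ratio of 0.23. How many of all genes compared had opposite signs was not counted, so 2 of 30 has no background share beside it. The signs depend on the scaling, with 6 such genes at equal totals without ribosomal protein genes and 3 with size factors. With TPM both genes were higher in polysomes in both genotypes, with a log2 TE of 0.51 and 0.13 for TM7SF2 and of 0.09 and 0.62 for SCD, and the 2 genes with opposite signs were IDI1 and CYP51A1. With 1 library per condition, neither difference was tested.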

How the results depend on the processing

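No paired analysis was possible because the conditions share a single replicate number, and for the same reason no replicate could be left out. Scalings shift all log2 ratios by one amount, the pseudocount aside, so TPM and equal totals without 83 ribosomal protein genes moved the medians together. TPM gave a median TE ratio of 0.26 for the 30 genes and 0.29 for all genes, with 2 higher and 0 lower, 0.21 for the mevalonate arm, 0.15 for the enzymes after squalene, 0.33 for the regulators and 0.47 for fatty acid synthesis. The median sub-polysome ratio was then -0.22 and the median log2 TE 0.86 in WT and 0.94 in K177Q cells. Equal totals gave 0.20 and 0.23, 2 higher and 0 lower, 0.14, 0.085, 0.27 and 0.41 for the roles in the same order, a sub-polysome ratio of -0.21 and a log2 TE of 0.72 in K177Q cells. SREBF1 and ACACA were past 1.5-fold, and TM7SF2 was not, under both. A minimum mean of 10 FPKM left 22 genes, with a log2 TE of 0.65 in K177Q cells, and size factors gave 0.40. At 2-fold, 0 genes were lower. With pseudocounts of 1 and 0.01, without a filter, and with size factors, the counts stayed at 0 higher and 1 lower and 0 of 30 genes changed direction. The sign of the TE ratio changed for 15 of 30 genes with TPM, for 12 with equal totals and for 8 without the length trend. Over all genes, 445 were higher and 767 lower as deposited, against 159 and 519 with a pseudocount of 1, 1823 and 2140 without a filter, 38 and 312 at 10 FPKM, 2070 and 315 with TPM, 1523 and 340 with equal totals, 84 and 207 at 2-fold, and 304 and 400 without the length trend. At the approximate depth, counting error was largest for HSD17B7.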
